A study of Rattus norvegicus with 2 samples.

Results

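Tetrahydrobiopterin is the cofactor of the aromatic amino acid hydroxylases and of the nitric oxide synthases, and the genes that make and recycle it were compared between 2 arrays of AT6.1, a long-established line of rat prostate cancer cells. The 6 genes considered were Gch1, Gchfr, Pts, Spr, Qdpr and Pcbd1. They were chosen by name, with their ratios between these arrays known, and every probe set annotated to exactly 1 of these symbols was taken. That gave 5 probe sets of 4 genes, out of 20826 probe sets with 1 symbol and 14217 genes. Gch1 had 2 probe sets, and Gchfr, Pts and Qdpr had 1 each. No probe set was listed under Pcbd1 alone in the annotation used here, and those for Spr also carried the symbol of its pseudogene Spr-ps1.

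The Ndrg-1 array was made from clone 7, transfected with pcDNA3 with the insert N-myc downstream regulated gene-1 (gene symbol Ndrg1). The vector array was made from clone 9, transfected with pcDNA3 without an insert. Both clones grew in the same medium with 10% fetal calf serum and 0.3 mg/mL G418 as selection. With a single array for each clone, no comparison has a p-value. Each group is 1 clone, and clone, culture, array and insert cannot be told apart.

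The enzyme encoded by Gch1, GTP cyclohydrolase I, opens the synthesis of tetrahydrobiopterin from GTP and sets its rate in most cells. Gchfr encodes the small regulatory protein that binds this enzyme and passes on feedback inhibition by tetrahydrobiopterin and activation by phenylalanine. Pts encodes 6-pyruvoyl-tetrahydropterin synthase and Spr encodes sepiapterin reductase, the enzymes of the later steps. After the cofactor has been used, the dehydratase encoded by Pcbd1 and the dihydropteridine reductase encoded by Qdpr return it to its active form. In many cell types inflammatory cytokines raise the synthesis of GTP cyclohydrolase I.

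The deposited values are linear probe set signals. The 2% trimmed mean signal was 150.0 in both arrays, and the median signals were 31.1 and 31.2. Ratios are Ndrg-1 over vector, after a shift of 0.0048 (log2) that set the median of the brighter probe sets to 0. Signals under a floor of 31.0, the median of all signals, were set to it. Of the 14217 genes, 9182 exceeded the floor in at least 1 array, and 3.13% of these differed at least 2-fold, with 1.62% higher and 1.50% lower in the Ndrg-1 clone. The only error available is how far probe sets for the same gene disagree, with an SD of 0.23 on the log2 ratio over 2296 genes. It leaves out variation between clones, cultures and arrays. The brighter of the 2 Ndrg1 probe sets gave 1353 in the Ndrg-1 clone and 1062 in the vector clone (log2 ratio 0.34), and the dimmer gave 154 and 181 (-0.24). Neither reached 2-fold, so the array does not show the insert as a higher Ndrg1 signal of that size. The sample is labelled as over-expressing Ndrg-1. Whether these probe sets can read RNA of the insert was not tested.

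The gene of the enzyme that opens the pathway and the gene of its regulator were both lower in the Ndrg-1 clone, while the synthase and the recycling reductase were close to equal. Of the 4 genes measured, 2 were at least 2-fold lower and 0 at least 2-fold higher, beside 1.50% and 1.62% of all genes measured. Since the genes were chosen with these ratios known, nothing is read from that count, from their median or from the ranks of single genes. The median log2 ratio was -0.71 over the 4 genes and 0.0029 over all 9182.

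Gch1 was lower on both of its probe sets. The brighter, 1387221_at, gave a signal of 277 in the Ndrg-1 clone and 707 in the vector clone, a log2 ratio of -1.36 (2.56-fold lower). The dimmer, 1368503_at, had 57.1 and 129, which is 2.27-fold lower (log2 ratio -1.18). The gap between these ratios was 0.17, beside an SD of 0.23 between probe sets of a gene over 2296 genes. Their mean was -1.27 with an SD of 0.12 (2 probe sets of the same 2 arrays, which are no replicates of the clones). By the mean signal of its probe sets, Gch1 lies among the genes from 184 to 354, where the SD between probe sets was 0.20. That spread lies within the same 2 arrays, so it is no measure against which a difference between the clones can be tested. The 2-fold call of the dimmer probe set depended on the setting. With 16 added to each signal and no floor, its log2 ratio was -0.996. In RNA of a whole culture, fewer cells that express a gene and less RNA per cell cannot be told apart. Ordered from the lowest ratio, Gch1 ranked 56 of 9182 genes, which only describes a gene chosen with its ratio known.

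Gchfr had the lowest ratio of the 4 genes. Its probe set 1368085_at gave a signal of 141 in the Ndrg-1 clone and 424 in the vector clone, a log2 ratio of -1.59 (3.02-fold lower). The SD between probe sets of genes in this range of signal was 0.20. Gchfr, likewise chosen with its ratio known, ranked 35 of 9182 from the lowest ratio. It has no further probe set against which the value could be set. The ratios of Gchfr and Gch1 lay 0.24 apart. Whether the enzyme and its regulator were lower by different amounts cannot be tested with 1 array per clone.

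**Figure D1:**
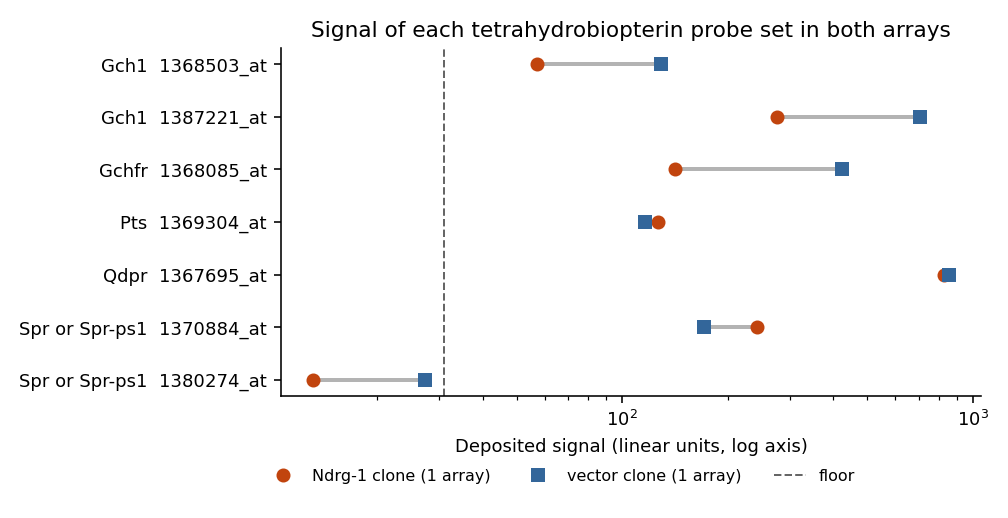
Deposited signal (log axis) of each probe set in the Ndrg-1 clone (circles) and the vector clone (squares), 1 array each, with a grey line joining both values and the floor dashed. Both Gch1 probe sets and the Gchfr probe set lie lower in the Ndrg-1 clone, the Pts and Qdpr pairs nearly coincide, and the brighter of the probe sets shared by Spr and Spr-ps1 lies higher.

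Pts, which acts directly after Gch1, differed little. Its probe set 1369304_at gave a signal of 127 in the Ndrg-1 clone and 116 in the vector clone, a log2 ratio of 0.12. The SD between probe sets of genes in this range of signal was 0.25, which is likewise no measure of differences between clones. Relative to Pts, Gch1 was lower by a log2 difference of -1.48 and Gchfr by -1.71. A constant change in the scaling of an array leaves these differences as they are.

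The probe sets that carry Spr together with its pseudogene cannot be assigned to the gene and were not counted. The brighter, 1370884_at, gave a signal of 242 in the Ndrg-1 clone and 171 in the vector clone, a log2 ratio of 0.50, in the opposite direction to Gch1. The other, 1380274_at, was under the floor in both arrays, at 13.1 and 27.4, and gave no ratio.

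Of the recycling genes, Qdpr was read by probe set 1367695_at, with a signal of 828 in the Ndrg-1 clone and 856 in the vector clone. Its log2 ratio was -0.05, and the SD between probe sets of bright genes, within the same arrays, was 0.17. Gch1 differed from Qdpr by -1.30 on the log2 scale. For Pcbd1 there is no value. Pcbd2, which encodes a homologue of the same dehydratase, had signals of 728 and 727 on its brighter probe set (log2 ratio -0.0025) and 254 and 243 on the other (0.06). Qdpr and Pcbd2 thus did not share the lower signals of Gch1 and Gchfr.

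**Figure D2:**
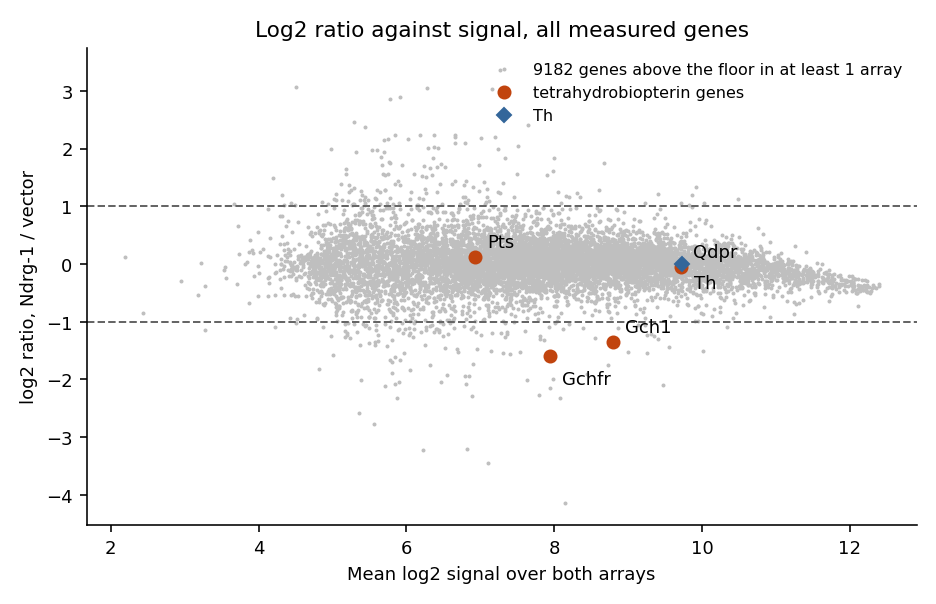
Log2 ratio (Ndrg-1 over vector) against the mean log2 signal of both arrays for the 9182 genes above the floor in at least 1 array (grey), with the 4 tetrahydrobiopterin genes (circles) and Th (diamond) marked and dashed lines at 2-fold. Gch1 at -1.36 and Gchfr at -1.59 lie below the lower line, and Pts at 0.12 and Qdpr at -0.05 lie between the lines. Of all genes measured, 1.50% were at least 2-fold lower.

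The calls depend on the level that is set to 0. Scaled to the hybridisation spikes, which moved the median of all genes to 0.53, Gch1 was at -0.81 and no longer 2-fold lower, Gchfr was at -1.05, Pts at 0.66 and Qdpr at 0.49. That scaling made 732 genes 2-fold higher and 43 lower, against 149 and 138. Scaled to the poly-A spikes (median of all genes -0.19; 102 higher and 232 lower), Gch1 was at -1.56, Gchfr at -1.79, Pts at -0.08 and Qdpr at -0.25. The direction of Gch1 and Gchfr was the same under all 10 other settings, with ranges from -1.56 to -0.81 and from -1.79 to -1.05. The signs of Pts and Qdpr were not. Several of these settings could move the ratios little or not at all. A floor at the 25th percentile left the ratios of Gch1, Gchfr, Pts and Qdpr as they were. Leaving out the rescaling undid a shift of only 0.0048. The number of settings is therefore no number of independent checks.

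**Figure D3:**
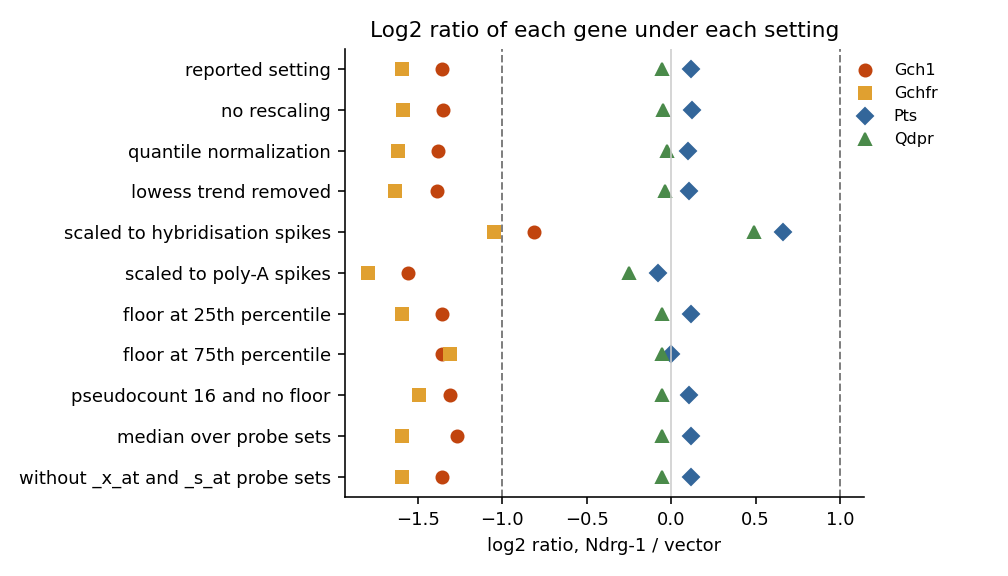
Log2 ratio (Ndrg-1 over vector) of Gch1, Gchfr, Pts and Qdpr under the reported setting and the 10 alternatives, with dashed lines at 2-fold. Gch1 and Gchfr stay to the left of Pts and Qdpr in every row, and scaling to the hybridisation spikes moves all 4 to the right, Gch1 to -0.81.

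Because the signals of Gch1 and Gchfr were lower together, the stretch of 250 bases before the annotated start of each is shown. Both come from RefSeq for rat (assembly GRCr8), in which all 6 genes have an entry, and are read 5′ to 3′ on the gene's strand. The window of Gch1 lies on the minus strand at chr15:22917413-22917662 and that of Gchfr on the plus strand at chr3:126611642-126611891. Capitals mark CCAAT (the CCAAT box) and TGACG (the core of a cyclic AMP response element) on either strand.
Gch1: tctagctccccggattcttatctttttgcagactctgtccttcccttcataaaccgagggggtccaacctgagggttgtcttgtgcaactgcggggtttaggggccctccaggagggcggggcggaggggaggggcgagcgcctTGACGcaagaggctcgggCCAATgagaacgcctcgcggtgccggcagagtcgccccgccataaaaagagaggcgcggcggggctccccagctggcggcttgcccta
Gchfr: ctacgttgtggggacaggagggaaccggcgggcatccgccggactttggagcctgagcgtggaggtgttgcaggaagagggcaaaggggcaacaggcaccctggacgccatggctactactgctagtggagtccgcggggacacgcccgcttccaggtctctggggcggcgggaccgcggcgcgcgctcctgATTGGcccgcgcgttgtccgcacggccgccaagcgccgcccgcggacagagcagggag

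In Gch1 the CCAAT box lies 88 to 84 bases before the start and the TGACG core 106 to 102 bases before it. In Gchfr a CCAAT box lies on the opposite strand, as ATTGG, 58 to 54 bases before the start, and neither TGACG nor its reverse complement is in the window. Of all 33469 promoter windows of this length, 34.0% hold CCAAT and 18.2% hold TGACG on either strand. The full element TGACGTCA, which contains TGACG, is in 1.59% of windows and in 0 of the 6. The GC box GGGCGG occurs 2 times in Gch1 and 2 times in Gchfr, and in 30.5% of all windows. Among the others, CCAAT is also found in Spr (2 times) and Qdpr (1), and GGGCGG in Spr (2), Qdpr (4) and Pcbd1 (1). TGACG was in the window of Gch1 alone among the 6. The windows of Gch1 and Gchfr were 64.4% and 70.4% G or C, against a median of 51.2% over all windows. Those of Pts (57.2%), Spr (58.4%), Pcbd1 (58.8%) and Qdpr (61.2%) were above that median too. These matches describe the letters and are not evidence of binding.

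The enzymes that use tetrahydrobiopterin were mostly under the floor. Of the 8 listed, 5 had a probe set with 1 symbol, and 2 were above the floor. Th, the tyrosine hydroxylase that opens catecholamine synthesis, gave a signal of 848 in both arrays (log2 ratio -0.0050). Its signal exceeded the floor many times over, on a single probe set. The inducible nitric oxide synthase gene Nos2 lay just above the floor, at 33.4 in the Ndrg-1 clone and 37.7 in the vector clone (-0.18). The other synthase genes Nos1 (15.97 and 10.31) and Nos3 (2.80 and 8.71) and the alkylglycerol monooxygenase gene Agmo (11.8 and 5.75) lay under the floor in each array, which leaves no comparison. Thus the user of the cofactor with a bright probe set was equal in the clones while the signals of Gch1 and Gchfr were not.

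Other genes of catecholamine cells did not accompany Th. Ddc, the decarboxylase that follows tyrosine hydroxylase, had signals of 20.7 and 8.93 on its brighter probe set, Dbh had 4.98 and 6.57, and the granule protein gene Chga had 1.47 and 1.29, all under the floor. The vesicle transporter gene Slc18a2 had 38.86 in the Ndrg-1 clone and 25.03 in the vector clone, under the floor in the latter. Of the 5 markers of such cells with a probe set, 2 exceeded the floor in the Ndrg-1 clone and 1 in the vector clone, and their summed scaled signals of 914 and 893 were nearly all from Th. What the Th probe set reads in these cells was not tested.

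Genes that act beside the pathway were mostly within 2-fold. In 7 lists with 104 genes, 63 exceeded the floor in at least 1 array, of which 0 were at least 2-fold higher and 1 lower, beside 1.62% and 1.50% of all genes. Their median log2 ratio was -0.01. The lists were written with earlier results of these data known. The same 1.62% and 1.50% stand beside the count of each list below, and nothing is read from a count of 0 or 1.

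GTP, the starting material, is supplied by purine synthesis and salvage. All 14 of the 18 listed genes with a probe set were above the floor, 0 reached 2-fold, and the median log2 ratio was -0.0074. The widest were Adsl, of purine synthesis, at 461 in the Ndrg-1 clone and 337 in the vector clone (0.45), and Pnp, the purine nucleoside phosphorylase, at 1400 and 1782 (-0.35). Among reductases that can stand in for Spr, folate enzymes and Pcbd2, 13 of 16 were measured and 0 reached 2-fold (median 0.07). The carbonyl reductase gene Cbr3 was at 125 and 164 (-0.39), and the serine hydroxymethyltransferase gene Shmt2 at 978 and 769 (0.34).

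In the list of arginine and nitric oxide genes, 9 of 18 were measured, with a median of -0.21. Beside 1.50% of all genes, 1 of the 9 was lower by 2-fold. That gene was Arg1, the arginase that competes with nitric oxide synthases for arginine. It gave a signal of 104 in the Ndrg-1 clone and 249 in the vector clone on its only probe set, a log2 ratio of -1.26 (2.40-fold lower). With the hybridisation spikes as reference, or with the floor at the 75th percentile, no gene of this list reached 2-fold. In the list for aromatic amino acids and monoamines, 5 of 22 were measured and 0 reached 2-fold (median 0.29). The transporter subunit gene Slc3a2 was at 1460 and 1031 (0.50) and the monoamine oxidase gene Maoa at 831 and 1064 (-0.36).

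All 16 genes with a probe set among the 18 cytokine receptors and transcription factors linked to Gch1 in other cells were measured, and 0 reached 2-fold (median -0.09). Of the 16, 7 had a ratio above 0 and 9 below, and the 2 widest were above 0. Whether any of them acts on Gch1 in these cells was not tested. Atf2, a factor that binds cyclic AMP response elements, had 120 in the Ndrg-1 clone and 60.4 in the vector clone (0.99, just under 2-fold). The interleukin-1 receptor gene Il1r1 had 133 and 71.6 (0.89) on its brightest probe set, and its other probe sets were under the floor in both arrays. Irf1, a factor induced by interferon gamma, was at 220 and 209 (0.07). In the NDRG family, Ndrg2 was at 183 and 248 (-0.44), Ndrg4 at 46.9 and 59.9 (-0.36), and 0 of 4 reached 2-fold (median -0.22).

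**Figure D4:**
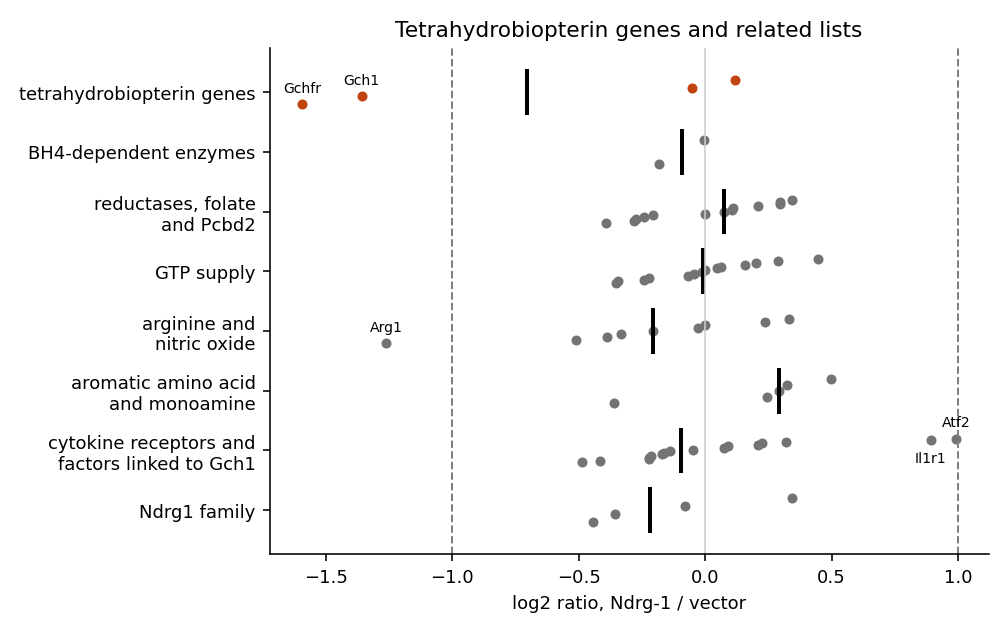
Log2 ratio (Ndrg-1 over vector) of each gene above the floor in at least 1 array, for the 4 tetrahydrobiopterin genes and the 7 related lists, with list medians as black bars and dashed lines at 2-fold. BH4 stands for tetrahydrobiopterin. Beside Gchfr and Gch1, Arg1 at -1.26 is the point past 2-fold, and Atf2 at 0.99 lies at the line.

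The genes directly beside Gch1 and Gchfr on the chromosomes did not share their lower signals. Around each gene, the nearest 8 measured genes on either side were taken in RefSeq order. For Gch1 on chromosome 15, the 16 neighbours had a median log2 ratio of 0.06, and the adjacent Cgrrf1 and Wdhd1 were at 0.13 and -0.04. Of these neighbours 1 was 2-fold lower, Peli2, the farthest on its side, at -1.66. For Gchfr on chromosome 3, the median of 16 neighbours was 0.12, the adjacent Rmdn3 and Dnajc17 were at -0.01 and -0.23, and 0 were 2-fold different. Around Pts the median was 0.0088 and 0 of 16 were 2-fold different. Around Qdpr the median was 0.04, with 2 neighbours 2-fold lower (Sod3 at -2.01 and Kcnip4 at -1.04) and 1 higher (Bst1 at 1.84). Of all genes measured, 1.50% were 2-fold lower and 1.62% higher. With 16 neighbours for each gene, nothing about a region is read from these counts.

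**Figure D5:**
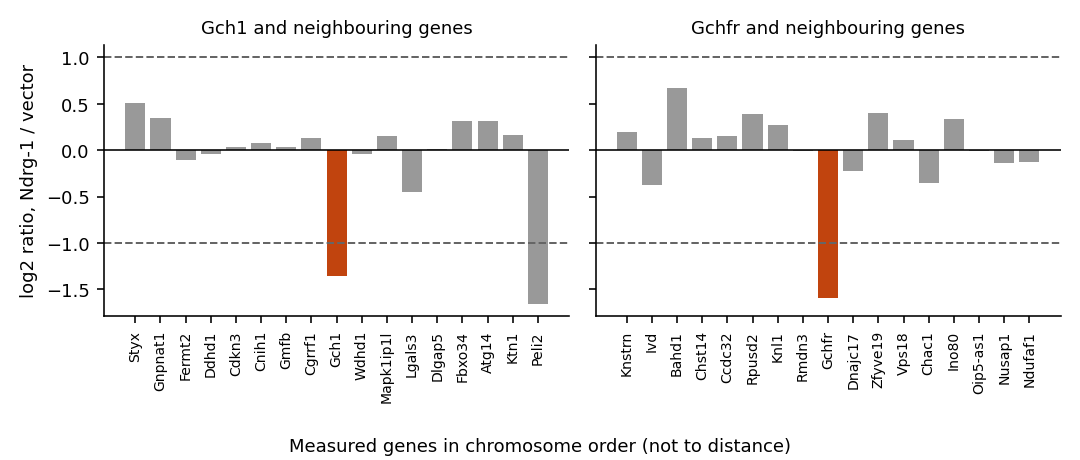
Log2 ratio (Ndrg-1 over vector) of Gch1 and Gchfr (red) and of the 8 measured genes on either side in chromosome order, with dashed lines at 2-fold. The bars beside Gch1 and Gchfr are short, at 0.13 and -0.04 and at -0.01 and -0.23, and Peli2 at the right end of the Gch1 panel is at -1.66.

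The genes whose signals in both arrays were nearest to those of Gchfr, by Euclidean distance in log2 signal among the 8552 genes above the floor in both arrays, were Plac8 (distance 0.22; 147 in the Ndrg-1 clone and 366 in the vector clone), Spry4 (0.28; 142 and 350) and Map2 (0.29; 126 and 503). With 2 arrays this likeness rests on 2 values per gene.

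The markers of the labelled tissue were mostly under the floor. Of 7 prostate epithelial markers with a probe set, 1 was above it, Krt8, at 38.7 in the Ndrg-1 clone and 46.2 in the vector clone, while Krt18, Epcam, Cdh1 and Pbsn were under it in both. The summed scaled signals of these 7 were 69.8 and 79.3. Of 5 mesenchymal markers 4 were above the floor in both arrays. Vim (4344 and 5798, log2 ratio -0.42), Fn1 (2240 and 2547, -0.19) and S100a4 (4156 and 5873, -0.50) were within 2-fold, and Col1a1 was 2.16-fold higher in the Ndrg-1 clone (167 and 76.9, 1.11). Cdh2 was under the floor in both. Of cell types known for high Gch1, none of the 5 endothelial markers was above the floor in either array, and of 3 hepatocyte markers Ttr was just above it in the vector clone (30.3 and 35.2). Of 6 macrophage and leukocyte markers 2 were above the floor in the Ndrg-1 clone and 3 in the vector clone (summed 453 and 481). The leukocyte-defining Ptprc and Itgam were under it, at 2.72 and 3.25 and at 1.82 and 1.68, while Cd14 had 210 and 308 (-0.56) and Cd68 206 and 114 (0.85). The part of Cd14 and Cd68 expressing cells in the signals of Gch1 was not tested.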

How the data were processed

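Total RNA of 2 cultures was hybridised to Affymetrix arrays, 1 per group. The authors deposited 1 linear intensity (probe set signal) per probe set and array, and the submitters' processing notes name GCOS 1.3. How signals were summarised and scaled, and any detection calls, are not given in these sources. The equal trimmed means show scaling before deposit. After 57 control probe sets were set aside, the platform annotation gave 1 symbol to 20826 probe sets, several to 436 and none to the rest, with symbols updated by gene ID through RefSeq (GRCr8). The vector array was shifted by the median log2 ratio of probe sets above the median signal, the floor was applied, and the brightest probe set by mean log2 signal stood for a gene. A difference was called at 2-fold. The error is the pooled SD between probe sets of a gene above the floor in both arrays. The number of arrays limits the precision.

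The members, lists and settings were chosen with earlier results of these data known. Named genes were all members, Ndrg1, the list genes that reached 2-fold (otherwise the 2 widest), the markers and the 3 genes nearest to the widest member. Pcbd2, Irf1, the genes under the floor and the chromosome neighbours were added after their values were seen. The 10 other settings changed the scaling, the floor or the choice of probe sets, and 1 was added later. The steps were tested on simulated data. Software was pandas 2.3.3 with numpy 2.4.6 under Python 3.11.15, with lowess from statsmodels 0.14.6.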

Additional observations from a re-analysis of the deposited data

How the results depend on the processing

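No paired analysis was possible because there was 1 array per group. Of 40 ratios of the 4 genes under the 10 other settings, 35 moved by less than the SD between probe sets and 5 by more. Some of the 35 could not move, such as those with the floor at the 25th percentile, where all 4 ratios were unchanged. Scaled to the hybridisation spikes, 1 gene instead of 2 was 2-fold different, the median of the 4 genes was -0.16, Gch1 was at -0.81 (dimmer probe set -0.64), Gchfr at -1.05, Pts at 0.66 and Qdpr at 0.49. The lists then held 0 (arginine and nitric oxide), 1 (aromatic amino acid and monoamine) and 2 (cytokine receptors and factors) genes past 2-fold. With the floor at the 75th percentile, Gchfr was at -1.31, the median at -1.31, the dimmer Gch1 probe set was at the floor in both arrays (0.0) and the arginine list held 0. With the floor at the 25th percentile, the arginine list held 2 and the monoamine list 1. Counting the probe sets shared by Spr and its pseudogene as Spr, chosen after seeing the data, gave a median of -0.053. All genes past 2-fold made up 3.13% of those measured, against 8.34% with the hybridisation spikes, 7.39% with the lower floor and 0.991% with the higher. What limits low signals such as those of Nos1, Nos3 and Ddc is the floor.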
